A study of Rattus norvegicus with 170 samples.

Results

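The genes described here encode 10 transcription factors that set and hold the identity of the pancreatic beta cell: Pdx1, Nkx6-1, Nkx2-2, Neurod1, Isl1, Pax6, Mafa, Foxa2, Rfx6 and Insm1. They were taken by symbol, and all 10 were found among the 24113 genes of the deposited table, Insm1 on 2 transcript rows that were summed and each other gene on 1 row. The table holds the RNA of 170 single cells from islets of wild-type male Sprague Dawley rats aged 8 weeks. Hand-picked whole islets were kept for 48 h at 5.5 mM glucose in the vehicle, 0.1% DMSO, or in 3 µM GNF4877, an aminopyrazine that inhibits the kinases DYRK1A and GSK3B and was used to drive beta cells into division, before the cells were dispersed and captured on microfluidic chips. The vehicle arm holds 86 cells and the GNF4877 arm 84. No animal, culture or chip is named for any cell, so each treatment counts as 1 sample, chip, lane and treatment cannot be told apart, and no test between treatments was made.

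Pdx1, Nkx6-1, Nkx2-2, Isl1 and Pax6 are homeodomain proteins, Neurod1 is a basic helix-loop-helix protein, Mafa a basic leucine zipper protein, Foxa2 a forkhead protein, Rfx6 a winged-helix protein and Insm1 a zinc finger protein. Pdx1, Neurod1 and Mafa bind the insulin gene promoter directly and drive it together. Pdx1, Nkx6-1 and Mafa mark beta cells among mature islet endocrine cells (Pdx1 is also made by delta cells), whereas Neurod1, Isl1, Pax6, Foxa2, Rfx6, Nkx2-2 and Insm1 act across several endocrine cell types, glucagon-producing alpha cells among them.

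Expression was given as reads per 1000000 mapped reads (RPM), and cells were classed by hormone transcripts. A cell with 1000 RPM or more of Ins1, a rat insulin gene, is called Ins1-high, and a cell with 1000 RPM or more of Gcg, the glucagon gene, and less Ins1 than that is called an alpha cell. This gave 78 Ins1-high and 5 alpha cells in DMSO and 59 Ins1-high and 18 alpha cells in GNF4877, with 3 and 7 cells in neither class. The lowest Ins1 value inside the class was 1784 RPM in DMSO and 1248 RPM in GNF4877, and the highest value outside it was 495 RPM and 813 RPM. Every alpha cell held at least 43763 RPM of Gcg. Median depth was 1235722 mapped reads per Ins1-high cell in DMSO, 1424573 in GNF4877, and 1388772 per GNF4877 alpha cell.

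Several features of the cells stood apart before any member was compared. Of the 78 DMSO Ins1-high cells, 25 also reached 1000 RPM for a further islet hormone gene (Gcg, Sst for somatostatin or Ppy for pancreatic polypeptide), against 4 of 59 in GNF4877. In 22 of the 25 it was Gcg. Gcg had a median of 159881 RPM in the mixed-hormone DMSO cells and 74.3 RPM in the other DMSO Ins1-high cells, and of 74.1 RPM over GNF4877 Ins1-high cells. The part of the further hormone in the members' values across treatments was not tested, and detection without mixed-hormone cells is given beside the comparison of treatments at equal depth. The median number of genes with a read was 8938 per DMSO Ins1-high cell and 7031 per GNF4877 Ins1-high cell. After each cell was thinned at random to 100000 reads, those medians were 6608 and 4925, and 2 DMSO and 1 GNF4877 Ins1-high cells with fewer reads on listed transcripts were left out. No alpha cell was.

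Shares of cells carry exact Clopper-Pearson 95% intervals, and beside a share of 0 a limit of 3 counts over the cells of the group is given as well. The intervals describe the cells of 1 sample each and are no test between treatments. PCR reads without molecular identifiers are not independent molecules, so intervals and limits cover counting error only. RPM is not scaled to transcript length, and for that reason no member's level is ranked against another's.

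Pdx1, which is needed for the pancreas to form and for the insulin gene to be transcribed, had at least 1 read in 67 of 78 (85.9%, interval 76.2 to 92.7%) DMSO Ins1-high cells. Its level there ran from 0 to 161 RPM with a median of 26.996 RPM. In GNF4877 Ins1-high cells the count was 40 of 59 (67.8%, interval 54.4 to 79.4%), and values ran from 0 to 219 RPM with a median of 16.5 RPM. The ranges of the treatments overlapped almost completely, and the GNF4877 cells differed mainly in a larger pile of cells with no read. Alpha cells, which should lack Pdx1, had it under GNF4877 in 0 of 18 (interval 0 to 18.5%), which allows a share of up to 16.7% by the limit of 3 counts. Under DMSO it was read in 1 of 5 alpha cells, DMSO_33, at 10.5 RPM, and that cell also held 1672 RPM of the delta cell hormone gene Sst. At 100000 reads per cell the shares were 68.4% (interval 56.7 to 78.6%) in DMSO Ins1-high, 55.2% (interval 41.5 to 68.3%) in GNF4877 Ins1-high and 0% in GNF4877 alpha cells.

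Nkx6-1, a repressor that keeps alpha and delta programmes off in beta cells, was read in 62 of 78 (79.5%, interval 68.8 to 87.8%) DMSO Ins1-high cells and 32 of 59 (54.2%, interval 40.8 to 67.3%) GNF4877 Ins1-high cells. Values ran from 0 to 48.3 RPM with a median of 7.02 RPM in DMSO and from 0 to 35.1 RPM with a median of 0.611 RPM in GNF4877. Most GNF4877 cells sat in the low part of the DMSO range: 33 DMSO cells but 10 GNF4877 cells reached 10 RPM. None of the alpha cells of either treatment had a read: under DMSO 0 of 5, and under GNF4877 0 of 18 (interval 0 to 18.5%), which allows a share of up to 16.7% by the limit of 3 counts. With equal depth the Ins1-high shares were 57.9% (interval 46.02 to 69.1%) in DMSO and 22.4% (interval 12.5 to 35.3%) in GNF4877. Pdx1 and Nkx6-1 were both read in 55 DMSO Ins1-high cells and neither in 4, while in GNF4877 both were read in 27 and neither in 14 of 59 (23.7%, interval 13.6 to 36.6%).

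Neurod1, an activator of the insulin gene that is also made by other endocrine cells, was the member found in every cell of the table. DMSO Ins1-high cells ran from 2.25 to 1768 RPM with a median of 406 RPM, with the upper quartile starting at 580.2 RPM. GNF4877 Ins1-high cells ran from 3.48 to 3811 RPM with a median of 393 RPM, and their upper quartile started at 1234 RPM. The medians lay close together, and the upper part of the GNF4877 cells reached further up. Because every cell held a Neurod1 read, a threshold says more than detection: 75 of 78 DMSO and 56 of 59 GNF4877 Ins1-high cells reached 10 RPM, as did 13 of 18 GNF4877 alpha cells. The alpha cells ran from 3.16 to 1484 RPM with a median of 220.3 RPM, and the 5 DMSO alpha cells held 262, 341, 544, 524 and 466 RPM. Cells of neither class had Neurod1 reads as well, from 5.99 to 57.7 RPM in DMSO and from 7.59 to 547 RPM in GNF4877, so a read alone does not separate the classes.

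**Figure D1:**
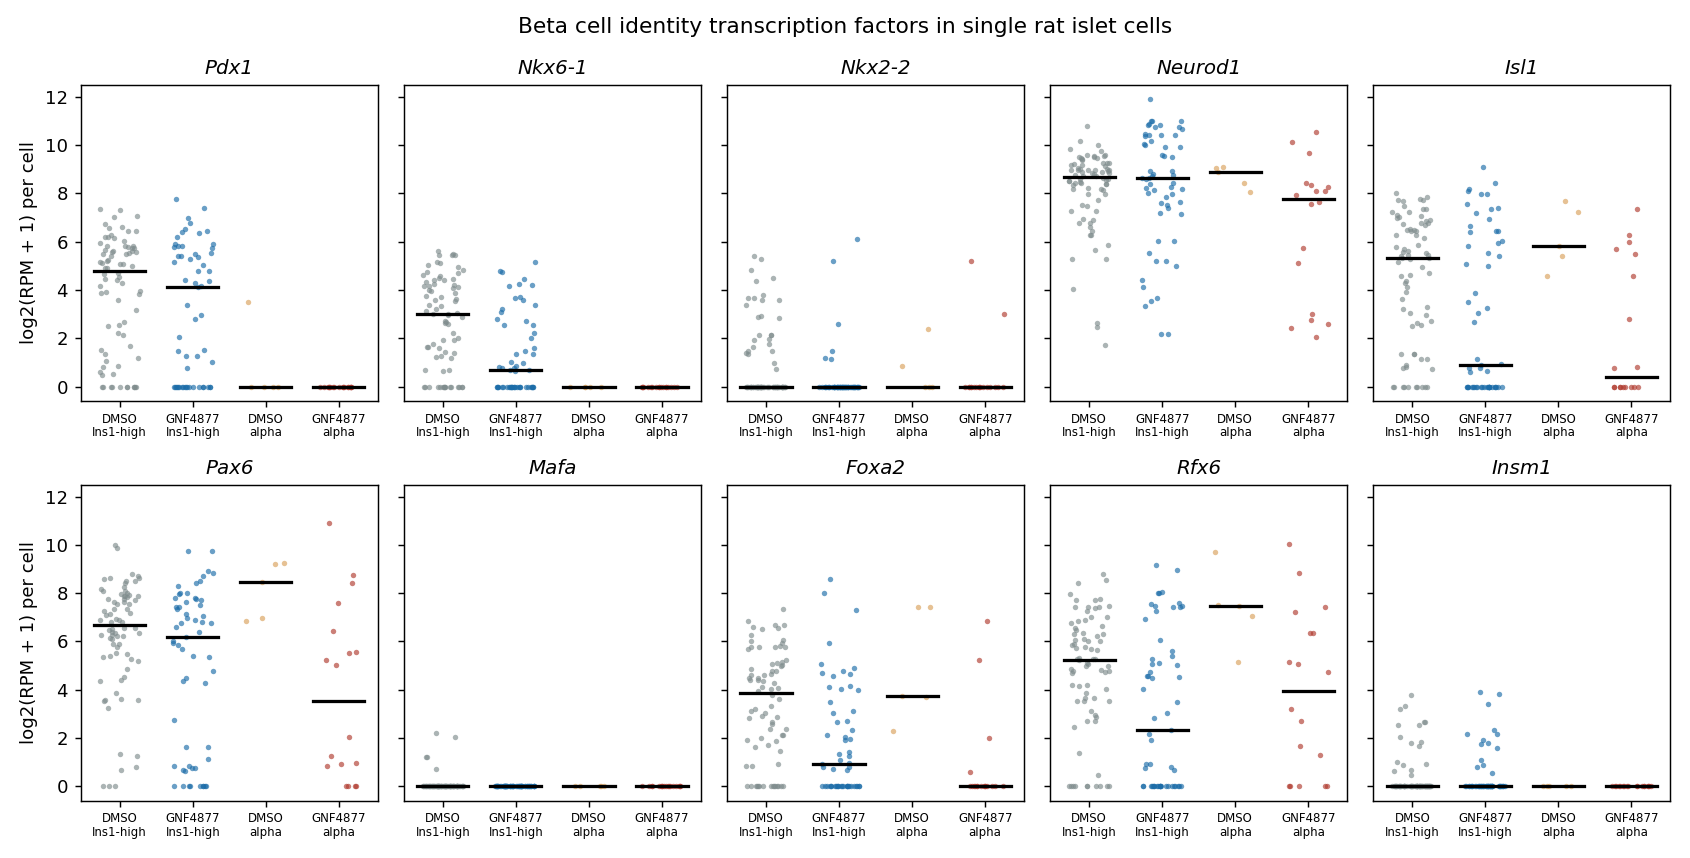
Level of each of the 10 factors in single cells, as log2(RPM + 1) on the vertical axis, for Ins1-high and alpha cells of both treatments, with a point per cell and a black line at the median. Pdx1 and Nkx6-1 lay at 0 in all 18 GNF4877 alpha cells, and the medians of Isl1, Foxa2 and Rfx6 were lower in GNF4877 than in DMSO Ins1-high cells while their highest cells were higher.

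Isl1, a LIM homeodomain factor that endocrine cells need to mature and survive, was read in 68 of 78 (87.2%, interval 77.7 to 93.7%) DMSO and 34 of 59 (57.6%, interval 44.1 to 70.4%) GNF4877 Ins1-high cells. Its values ran from 0 to 257 RPM with a median of 38.998 RPM in DMSO. In GNF4877 they ran from 0 to 543 RPM with a median of 0.882 RPM. Most GNF4877 cells with reads lay within the DMSO range, and GNF4877_13, GNF4877_16, GNF4877_45 and GNF4877_68 lay above it. At equal depth the shares were 73.7% (interval 62.3 to 83.1%) and 41.4% (interval 28.6 to 55.1%). GNF4877 alpha cells had a read in 9 of 18 (50%, interval 26.02 to 73.98%), and the 5 DMSO alpha cells, all with reads, held 148, 22.7, 202, 41.5 and 55.6 RPM.

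Rfx6, required for islet cell formation and for beta cells to keep their secretory function, was read in 68 of 78 (87.2%, interval 77.7 to 93.7%) DMSO Ins1-high cells, where values ran from 0 to 447 RPM with a median of 37.05 RPM. It was read in 37 of 59 (62.7%, interval 49.1 to 74.96%) GNF4877 Ins1-high cells, where they ran from 0 to 565 RPM with a median of 4.02 RPM. GNF4877_32 and GNF4877_6 lay above the DMSO range and the other GNF4877 cells within it. Thinned shares were 78.9% (interval 68.1 to 87.5%) and 51.7% (interval 38.2 to 65.05%). Alpha cells make Rfx6 too, and it was read in 13 of 18 (72.2%, interval 46.5 to 90.3%) GNF4877 alpha cells, up to 1048 RPM, and in 5 of 5 DMSO alpha cells, at 34.9, 133, 840.3, 184 and 177 RPM. Isl1 and Rfx6 were both without a read in 2 DMSO Ins1-high cells and in 13 GNF4877 Ins1-high cells.

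Foxa2, a forkhead factor that opens chromatin at pancreatic genes and lies upstream of Pdx1, was read in 63 of 78 (80.8%, interval 70.3 to 88.8%) DMSO and 34 of 59 (57.6%, interval 44.1 to 70.4%) GNF4877 Ins1-high cells. Values ran from 0 to 162 RPM with a median of 13.5 RPM in DMSO and from 0 to 387 RPM with a median of 0.903 RPM in GNF4877. Thinned to equal depth, the shares were 57.9% (interval 46.02 to 69.1%) and 27.6% (interval 16.7 to 40.9%). The groups overlapped over the whole DMSO range, with the cells GNF4877_16 and GNF4877_29 above it. Among alpha cells Foxa2 had a read in 4 of 18 (22.2%, interval 6.41 to 47.6%) under GNF4877 and in 5 of 5 under DMSO, at 12.2, 3.91, 172, 11.8 and 172 RPM.

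Pax6, which activates insulin and glucagon genes alike, was read in 75 of 78 (96.2%, interval 89.2 to 99.2%) DMSO and 50 of 59 (84.7%, interval 73.01 to 92.8%) GNF4877 Ins1-high cells. Its values ran from 0 to 1028 RPM with a median of 102 RPM in DMSO and from 0 to 861 RPM with a median of 71.5 RPM in GNF4877. The thinned shares were 86.8% (interval 77.1 to 93.5%) and 75.9% (interval 62.8 to 86.1%). GNF4877 alpha cells held reads in 14 of 18 (77.8%, interval 52.4 to 93.6%), reaching 1906 RPM in GNF4877_59, above all Ins1-high cells of both treatments. That cell held 15428 RPM of Ppy beside 65677 RPM of Gcg. The 5 DMSO alpha cells held 586, 124, 607, 115 and 356 RPM.

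Nkx2-2, Insm1 and Mafa sat near the limit of these libraries. Nkx2-2, a repressor and activator that beta cells need to differentiate, was read in 27 of 78 (34.6%, interval 24.2 to 46.2%) DMSO and 6 of 59 (10.2%, interval 3.82 to 20.8%) GNF4877 Ins1-high cells, with highest values of 41.5 and 68.3 RPM. Thinned, these shares were 15.8% and 5.17%, and alpha cells, which also make Nkx2-2, had it in 2 of 18 under GNF4877. Insm1, a zinc finger factor of all endocrine lineages, was read in 17 of 78 (21.8%, interval 13.2 to 32.6%) and 14 of 59 (23.7%, interval 13.6 to 36.6%) Ins1-high cells, never above 13.8 RPM. In GNF4877 alpha cells Insm1 was read in 0 of 18 (interval 0 to 18.5%), which allows a share of up to 16.7% by the limit of 3 counts. Mafa, the insulin gene activator of mature beta cells, is listed on a predicted transcript model only, as is Insm1. It had 10 reads over 5 of 78 (6.41%, interval 2.11 to 14.3%) DMSO Ins1-high cells, and no read in GNF4877, 0 of 59 (interval 0 to 6.06%), which allows a share of up to 5.08% by the limit of 3 counts. Because 1.32% of DMSO Ins1-high cells held a Mafa read at equal depth, a difference between treatments was not detectable at this depth.

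Members were also counted per cell. A DMSO Ins1-high cell had reads of a median of 7 of the 10 members (range 3 to 9), a GNF4877 Ins1-high cell 5 (range 1 to 9), a DMSO alpha cell 6 (range 5 to 6) and a GNF4877 alpha cell 3.50 (range 2 to 5). With 10 RPM or more required, the medians were 5, 4, 5 and 2. No cell of any group had reads of all 10.

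**Figure D2:**
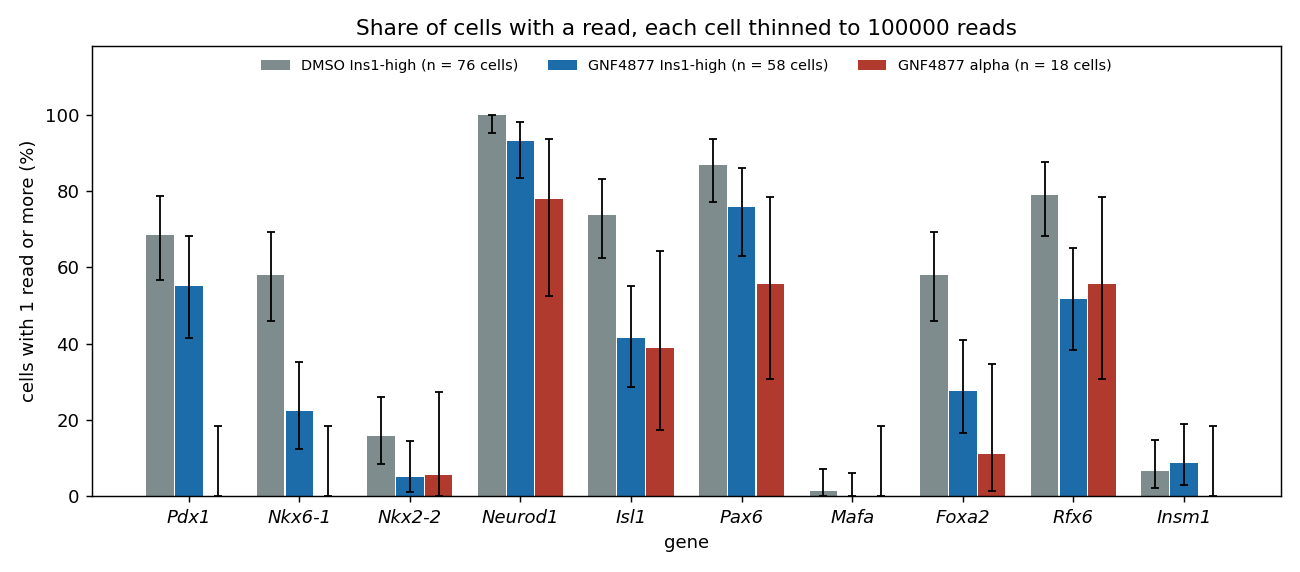
Percentage of cells with at least 1 read of each factor (vertical axis) after every cell was thinned to 100000 reads, with exact Clopper-Pearson 95% intervals, for DMSO Ins1-high, GNF4877 Ins1-high and GNF4877 alpha cells. For Nkx6-1, Isl1, Foxa2 and Rfx6 the GNF4877 Ins1-high share lay more than 20 points below the DMSO share, which for Nkx6-1 did not hold at 50000 reads, and Pdx1 and Nkx6-1 were at 0% in alpha cells.

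Whether an inducer of division costs beta cells their identity factors is the question the treatment comparison bears on. By mean RPM over Ins1-high cells, Nkx6-1 was the member past 2-fold between the treatments: 11.5 RPM in DMSO and 4.42 RPM in GNF4877, a log2 ratio of mean RPM + 1 of -1.21. Neurod1 had the highest ratio, 0.75, from means of 424 and 713 RPM. Pdx1 (-0.16), Isl1 (-0.06), Pax6 (-0.20), Rfx6 (-0.17), Foxa2 (-0.39) and Nkx2-2 (-0.58) lay between them on the same scale. These 8 members passed the filter of a mean of 1 RPM over all Ins1-high cells, and Mafa and Insm1 did not. Among the 13402 genes that passed, 17.6% were 2-fold or more lower in GNF4877 and 9.92% higher, so 1 lower and 0 higher of 8 is a share near the background on this scale. The members' median was -0.19 beside -0.10 for all genes. The difference of mean log2(RPM + 1), which weighs cells without a read more, gave another count: Nkx6-1, Isl1, Pax6, Foxa2 and Rfx6, 5 of 8, were past 2-fold lower, with 26.4% of genes past 2-fold in either direction. Isl1 stood at -1.51 on that scale, and the members' median was -1.27 beside -0.49 for all genes. Nkx2-2 rests on few cells: without the cell GNF4877_19, at 68.3 RPM, its ratio was -1.30.

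How many cells held a member, and how much those cells held, were also taken apart. For the 7 members with at least 5 cells at 10 RPM or more in both treatments, the share of such cells was lower in GNF4877 for all 7, with a median difference of -24.7 points, beside -10.95 points over 9533 genes filtered in the same way. The mean level within those cells was higher in GNF4877 for 6 of the 7, with a median log2 ratio of 0.57 beside 0.43 over those genes. The cells behind these levels were picked by the member's own value, and the members' median lay near that of the genes, so the levels are a description only. How many of the 9533 genes went the same way was not counted, so 7 of 7 and 6 of 7 are also a description only. Isl1 in such cells averaged 92.7 RPM in DMSO and 144 RPM in GNF4877, Rfx6 90.3 and 134 RPM, and Foxa2 46.4 and 72.5 RPM. Nkx6-1 stood at 23.6 and 19.4 RPM, the lower value being in GNF4877.

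At equal depth, 4 members, Nkx6-1, Isl1, Foxa2 and Rfx6, were read in a share of cells at least 20 points lower in GNF4877, of the 8 read in 10% or more of the thinned Ins1-high cells. At 50000 reads Nkx6-1 fell short of that, with shares of 34.6% in DMSO and 15.5% in GNF4877, and Isl1, Foxa2 and Rfx6 did not. A share lower by 20 points or more at 100000 reads was found for 27.6% of 11227 genes, while 0.828% were higher by that much and no member was. The median difference over all those genes was -12.02 points, so detection was lower in GNF4877 for genes at large, and its part in the members' values was not tested. Without mixed-hormone cells the shares were 54.9% and 24.1% for Nkx6-1, 66.7% and 40.7% for Isl1, 58.8% and 29.6% for Foxa2, and 74.5% and 51.9% for Rfx6, in DMSO and GNF4877. For the other members read often enough they were 70.6% and 55.6% for Pdx1, 82.4% and 75.9% for Pax6, 100% and 92.6% for Neurod1, and 17.6% and 5.56% for Nkx2-2. By mean RPM, which is not detection, 12 of 12 housekeeping genes were within 2-fold between the treatments, with a median log2 ratio of 0.28. Over 13402 genes 27.5% were past 2-fold in either direction, with a median of -0.10.

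Alpha cells of the same GNF4877 sample show which members separate the hormone classes. Pdx1 and Nkx6-1 had no read in them. With 3 reads over all 18 alpha cells as the limit, mean Pdx1 was at least 245-fold higher in Ins1-high cells and mean Nkx6-1 at least 34.3-fold. Insm1, under the filter on low values, was at least 7.91-fold higher in Ins1-high cells by the same limit, and Mafa had no read on either side. These are folds of means from cells chosen by Ins1 and Gcg, genes that the members themselves are known to control.

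The shared factors differed less. Neurod1 had a log2 ratio of -1.17 for alpha over Ins1-high cells, Isl1 of -1.29 and Foxa2 of -1.10, each past 2-fold on the low side. Nkx2-2 (0.21), Pax6 (0.34) and Rfx6 (0.89) were within 2-fold. Thus 5 of the 8 members that passed the filter were lower in alpha cells and 0 higher, where 35% of 12934 genes were lower and 12.6% higher. Pdx1 and Nkx6-1 are among those 5. With no read in alpha cells, they passed the filter only through the Ins1-high cells and could only be called lower. The count is therefore a description and is not read against that share. The members' median was -1.13, the same with Pdx1 and Nkx6-1 at their limits, beside -0.47 for all genes. Foxa2 turned on single cells: without GNF4877_16, GNF4877_29 or GNF4877_80, Ins1-high cells with 387, 253 and 156 RPM, its ratio was -0.56, -0.78 or -0.92, and without the alpha cell GNF4877_94 it was -2.60. Rfx6 passed 2-fold on the high side, at 1.08 or 1.11, without the Ins1-high cells GNF4877_32 or GNF4877_6, but was at -0.02 without the alpha cell GNF4877_77, which held 1048 RPM. Pax6 changed sign, to -0.93, without GNF4877_59. Without GNF4877_59 and GNF4877_8, the alpha cells with 1000 RPM or more of Sst or Ppy, Pax6 was at -0.84 and Foxa2 at -0.94, and 4 members were past 2-fold lower, where 49.1% of genes were past 2-fold in either direction. Nkx2-2 was at -1.05 without GNF4877_58. By the difference of mean log2(RPM + 1), Pax6 was at -1.14 and Isl1 at -0.73, so that Pax6 and not Isl1 was past 2-fold lower on that scale, where 23.2% of genes were past 2-fold in either direction. Genes outside the members also differed between these groups. Of 12 housekeeping genes 10 had log2 ratios below 0, with a median of -0.68, and 2 were past 2-fold lower, Gapdh (-1.59) and Sdha (-1.12). The 5 mesenchymal markers that passed the filter were all past 2-fold higher in alpha cells, and the 12 in the table summed to a mean of 741 RPM there, 114 RPM without GNF4877_42, and 4.05 RPM in Ins1-high cells. Vim held 2.25 RPM of that last sum. With so little in Ins1-high cells these markers could hardly be called lower, so their count is a description and is not read against the share of genes. A median alpha cell had reads of 5864.5 genes and a median Ins1-high cell of 7031. Whether these differences had a part in the members' ratios was not tested.

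In thinned cells, Pdx1, Nkx6-1 and Pax6 were the 3 members, of 7 read in enough cells, whose share was 20 points or more lower in alpha than in Ins1-high GNF4877 cells. Pdx1 and Nkx6-1, at 0% in alpha cells, were read in enough cells only through the Ins1-high cells and could only be called lower. Pax6 was barely past the rule, at -20.3 points, with 55.6% of alpha and 75.9% of Ins1-high cells. The background was 18.5% of 10121 genes lower and 2.68% higher. Rfx6 was read in 55.6% of alpha and 51.7% of Ins1-high cells, and Isl1 in 38.9% and 41.4%. For Irx2, an alpha cell factor, the pattern ran the other way, as a check on the classes: it had a read in 10 of 18 GNF4877 alpha cells and in 0 of 59 Ins1-high cells (up to 5.08%).

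Ccnb1 encodes cyclin B1, which builds up as a cell nears mitosis, and 11 of the 59 GNF4877 Ins1-high cells held 10 RPM or more of it. All 16 listed cell cycle genes were 2-fold or more higher in those cells, with a median log2 ratio of 4.84. Ccnb1, which chose the cells, is itself a cell cycle gene. Cdc20 and Kif11, with means of 0.544 and 0.510 RPM in the other cells, passed the filter only through the Ccnb1 cells. That count is a description and is not read against the 15.6% of 12623 genes that were higher. Median depth was 1583250 mapped reads in the Ccnb1 cells and 1402838 in the others. Pdx1 was read in 9 of 11, ran from 0 to 169 RPM with a median of 31.6 RPM, and in the 48 cells below the threshold was read in 31 of 48, with a median of 6.23 RPM. Nkx6-1 was read in 6 of 11 (54.5%, interval 23.4 to 83.3%) and 26 of 48 (54.2%, interval 39.2 to 68.6%). Neurod1 ran from 9.07 to 1797 RPM with a median of 288 RPM in the Ccnb1 cells and had a median of 407 RPM below the threshold. The ranges of all these members overlapped between the classes.

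Rfx6 was read in fewer of the Ccnb1 cells, 4 of 11 (36.4%, interval 10.9 to 69.2%) against 33 of 48 (68.8%, interval 53.7 to 81.3%). At equal depth these shares were 36.4% and 55.3%. At full depth, Pdx1, Isl1, Pax6, Foxa2, Nkx2-2 and Insm1 were read in a larger share of the Ccnb1 cells than of the others. The median number of genes read was 7527 per Ccnb1 cell and 6924.5 per other cell, and 5300 and 4837 in thinned cells. Whether that difference had a part in the members' shares was not tested. No share over all genes stands beside detection in this comparison. By means, Nkx2-2 (2.06), Foxa2 (1.43) and Insm1 (1.08) were past 2-fold higher as log2 ratios, 3 of 9 members that passed the filter, with 0 lower. Nkx2-2 and Insm1 had means of 0.834 and 0.672 RPM below the Ccnb1 threshold and passed the filter only through the Ccnb1 cells. The count is therefore a description and is not read against the share of genes. Among 12623 genes 15.6% were higher and 25.8% lower, and the members' median of 0.43 stood beside -0.14 for all genes. Each of these calls by means was lost without a single cell. Without GNF4877_19 (68.3 RPM of Nkx2-2) the Nkx2-2 ratio was -0.28, and without GNF4877_14, a cell below the Ccnb1 threshold, 2.81. Foxa2 changed sign, to -1.13, without GNF4877_16, which held 387 RPM of it. Insm1 was at 0.57 without GNF4877_25 and at 0.77 without GNF4877_40. Rfx6, at -0.75, passed 2-fold on the low side without GNF4877_17 or GNF4877_19, at -1.44 and -1.32. Pdx1 (0.25), Nkx6-1 (0.43), Neurod1 (-0.21), Isl1 (0.46) and Pax6 (-0.13) stayed within 2-fold of mean RPM + 1 whichever cell was left out, but directions turned: Pdx1 was at -0.38 without GNF4877_30, Isl1 at -0.15 without GNF4877_16, Nkx6-1 at -0.05 without GNF4877_63 and Pax6 at 0.04 without GNF4877_74. By the difference of mean log2(RPM + 1), Pdx1 (1.03) and Isl1 (1.28) were past 2-fold higher and Rfx6 (-1.05) lower, while Nkx2-2 (0.60), Foxa2 (0.57) and Insm1 (0.64) were within 2-fold. On that scale 20.1% of all genes were past 2-fold. Of 12 housekeeping genes 1 was past 2-fold lower by means and the median log2 ratio was -0.25.

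Within the DMSO sample the members also varied with the further hormone. Isl1 was read in 25 of 25 mixed-hormone cells, median 103 RPM, and in 43 of 53 insulin-only cells, median 18.7 RPM. Pax6 had medians of 210.4 and 73.8 RPM, and Rfx6 medians of 52.7 and 30.9 RPM. Foxa2 had medians of 18.6 and 8.30 RPM, whereas Nkx2-2 and Insm1 had a median of 0 in both sets. Isl1, Pax6, Rfx6 and Foxa2 were thus higher at the median in the mixed-hormone cells, as was Neurod1, with medians of 458 and 394 RPM. The median number of genes read was 9038 in mixed-hormone and 8787 in insulin-only cells. No value over all genes stands beside this split, so the members' medians are a description only. Pdx1 was lower at the median in the mixed-hormone cells, at 21.2 RPM against 29.4 RPM in insulin-only cells. Nkx6-1 differed little, with medians of 7.09 and 6.94 RPM. Cells holding several hormones and wells holding several cells cannot be told apart here.

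Members rose and fell together across cells only loosely. Over 53 insulin-only DMSO cells, the 45 pairs of members had a median Spearman correlation of log2(RPM + 1) of 0.17, from -0.16 to 0.48. Neurod1 with Rfx6 was highest, 0.48, followed by Neurod1 with Pax6, 0.45. Over 55 insulin-only GNF4877 cells the median of 36 pairs, Mafa having no read, was 0.27, with Neurod1 and Isl1 highest at 0.53. The cells of each treatment come from 1 sample, and their members' mean followed the number of genes read per cell, with correlations of 0.55 in DMSO and 0.60 in GNF4877. Against Ins2, the other rat insulin gene and a target of several members, the members' mean correlated at 0.48 in DMSO and 0.06 in GNF4877, and at 0.42 and 0.02 with the members thinned to 100000 reads.

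The genes whose levels most resembled the members' mean in the insulin-only DMSO cells were Lrfn1 (0.69), RGD1309534 (0.68), Ero1l (0.65), an oxidase of disulfide bond formation in the endoplasmic reticulum, Galnt2 (0.65), which starts O-linked glycosylation, and Trappc1 (0.63), a subunit of a vesicle tethering complex. They were ranked among 8113 genes read in 50% or more of those 53 cells, whose median correlation with the members' mean was 0.18. In insulin-only GNF4877 cells, which had no part in that choice, the correlations were 0.40 for Lrfn1, 0.38 for RGD1309534, 0.21 for Ero1l and 0.14 for Trappc1, beside a median of 0.15 over the genes ranked there, with Galnt2 read in too few of them to be ranked. Ranked in those cells, 6165 genes were led by others, LOC100360692 (0.66), LOC100363521 (0.66), Dnajc10 (0.61), Btg2 (0.61) and Slc43a2 (0.61).

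Other transcription factors of the islet give the members' values a setting. Of 33 others found in the table, 19 passed the filter between treatments, 7 were 2-fold or more lower in GNF4877 Ins1-high cells and 1 higher, with a median log2 ratio of -0.71. Over all genes 17.6% were lower and 9.92% higher, with a median of -0.10. Myt1, a zinc finger factor of endocrine cells, had -2.17, Tle3, a corepressor partner of homeodomain factors, -1.03, Rfx3, a relative of Rfx6, -0.94, and Tshz1, which lies downstream of Pdx1, -0.90. With single cells left out, Tle3 was at -0.90 without DMSO_62, Rfx3 at -1.24 without GNF4877_95 and Tshz1 at -1.25 without GNF4877_16. As differences of mean log2(RPM + 1) over all the cells, Myt1 was at -2.51, Tle3 at -1.06, Rfx3 at -0.80 and Tshz1 at -2.98. By log2 ratios of means, 3 of 26 beta cell effector genes that passed were higher and 2 lower, with a median of 0.03, beside those same shares of all genes. Trpm5, a cation channel, had 1.85, Iapp, the amyloid polypeptide secreted with insulin, 1.52, Sytl4, a granule protein, 1.41, and the incretin receptor gene Glp1r -1.55, all as log2 ratios of means. By the difference of mean log2(RPM + 1) the medians were -0.78 for the effector genes and -0.95 for the other islet factors, beside -0.49 for all genes. In alpha over Ins1-high GNF4877 cells, again as log2 ratios of means, those effector genes had a median of -2.56, 18 of 26 lower. Over all genes in that comparison 35% were lower and 12.6% higher, with a median of -0.47. Ins2 stood at -9.62, the glucose transporter gene Slc2a2 at -8.08, the mitochondrial dehydrogenase gene Hadh at -7.72 and Trpm5 at -6.30, while the alpha cell factor gene Foxp1 stood at 2.32. Among the other islet factors 8 of 18 were lower and 4 higher in alpha cells, with Etv1, an ETS family factor, at 5.04, Tshz1 at -1.69, St18, a relative of Myt1, at -1.36 and the glucocorticoid receptor gene Nr3c1 at -0.56. Each cell left out in turn, the highest Etv1 ratio was 6.24 (without GNF4877_31), and the lowest ratios were -8.47 for Hadh (GNF4877_94), -2.57 for Tshz1 (GNF4877_52), -2.15 for St18 (GNF4877_69) and -1.09 for Nr3c1 (GNF4877_84). By Ccnb1, 2 of 16 other islet factors were higher and 4 lower, and 4 of 26 effector genes were higher and 3 lower, with a median of 0.48. Over all genes 15.6% were higher and 25.8% lower, with a median of -0.14. In the Ccnb1 cells Ins2, a target of the members, stood at 1.69, the granule genes Chga and Cpe at 1.70 and 1.13, and Glp1r at -1.31. The cell GNF4877_78 decided several of these calls: without it Ins2 was at 0.54, Chga at 0.32 and Cpe at 0.03, each within 2-fold. Glp1r was at -2.21 without GNF4877_16.

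Several members act on the insulin genes through short elements near the transcription start: heterodimers of Neurod1 bind the E box element GCCATCTG, and Pdx1 and other homeodomain members bind elements with a TAAT core. Because Ins1 chose the cells in which the members were measured, the 250 bases before the start of Ins1 and of Ins2 are shown from RefSeq on GRCr8, Ins1 at chr1:261185869-261186118 on the plus strand and Ins2 at chr1:207273806-207274055 on the minus strand, 5′ to 3′. Capitals mark GCCATCTG and TAAT on either strand, so that ATTA is TAAT on the other strand and TAATTA holds both.
Ins1: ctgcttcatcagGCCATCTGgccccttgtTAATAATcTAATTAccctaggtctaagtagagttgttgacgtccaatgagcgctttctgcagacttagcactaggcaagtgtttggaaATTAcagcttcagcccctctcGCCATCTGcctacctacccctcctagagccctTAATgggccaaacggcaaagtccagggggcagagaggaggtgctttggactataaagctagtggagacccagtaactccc
Ins2: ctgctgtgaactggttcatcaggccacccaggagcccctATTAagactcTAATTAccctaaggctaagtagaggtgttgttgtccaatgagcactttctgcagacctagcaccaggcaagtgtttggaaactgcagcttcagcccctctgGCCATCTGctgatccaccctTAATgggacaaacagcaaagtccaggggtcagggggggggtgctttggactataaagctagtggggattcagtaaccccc
Ins1 holds 2 copies of GCCATCTG and Ins2 holds 1, where 0.998% of 33469 rat promoters of that length hold any and 0.0179% hold 2 or more. TAAT occurs 6 times before Ins1 and 4 times before Ins2, against 56.97% of promoters with any, 10.8% with 4 or more and 3.34% with 6 or more. Of the 7 members with a promoter in that set, Pdx1, Nkx6-1, Nkx2-2, Neurod1, Isl1, Pax6 and Foxa2, none holds GCCATCTG in those letters and 4 hold TAAT. A match describes the letters in the window and not binding in these cells.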

How the data were processed

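RNA of single cells was captured on Fluidigm C1 chips, amplified with SMARTer chemistry, made into Nextera XT libraries and read as 50 bp single reads. The values are RPM (reads per 1000000 mapped reads) for 27586 transcripts, which the authors made with CASAVA 1.8.2, BWA 0.5.9 and SAMtools 0.1.19, per the submitters' processing notes. The deposited value 0.01 stands for no read and was set to 0. Transcripts were summed by gene. Mapped reads per cell were recovered from the smallest step between values, and 100% of the values that came to 20 reads or fewer differed by less than 0.1 from a whole count. Groups were compared by log2 of mean RPM + 1 over mean RPM + 1, for genes with a mean of at least 1 RPM over both groups' cells, and a gene was called past 2-fold. Detection was compared after random thinning to 100000 reads on listed transcripts, for genes read in 10% or more of cells, and called at 20 points. No doublets were removed, as captured cells had been inspected on the chip. Members and gene lists were chosen with earlier results of these data known. Named list genes were up to 4 per list with the largest ratios among those read in at least 50% of cells of the higher group. Outside that rule, the counts of cells with Irx2 were picked with their values in view. The 5 most alike genes were ranked by Spearman correlation. Tables were read with pandas 2.3.3, thinning used numpy 2.4.6, intervals came from scipy 1.17.1 and plots from matplotlib 3.10.9, all under Python 3.11.15. The ratios were also run on simulated counts with known changes. Those counts had counting error only and no further spread between cells, so that run cannot judge ratios that turn on single cells.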

Additional observations from a re-analysis of the deposited data

How the results depend on the processing

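Between treatments, members past 2-fold numbered 0 with a pseudocount of 10 RPM (7.86% of genes) and 5 by the difference of mean log2(RPM + 1) (26.4% of genes), where the members' median was -1.27 beside -0.49 for all genes, and from 1 to 2 with each cell left out in turn, the higher count without GNF4877_19. With a pseudocount of 10 RPM, 3 members were past 2-fold between alpha and Ins1-high cells (21.9% of genes) and 1 by Ccnb1 (18.8% of genes). By Ccnb1, leaving out each cell in turn moved Nkx2-2 between -0.28 and 2.81 and Foxa2 between -1.13 and 2.01, the lowest without GNF4877_19 and GNF4877_16. Why these values moved was not tested beyond the cells named. Of the single members' other values, 89 of the treatment comparison, 98 of the alpha comparison and 97 of the Ccnb1 comparison changed by no more than 1.5-fold, and 7, 14 and 18 moved further.

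Members read in fewer GNF4877 cells by 20 points numbered 4 of 8 at 100000 reads, 3 of 7 at 50000 reads (Nkx6-1 being lost and Isl1, Foxa2 and Rfx6 left, with 21.4% of genes), 4 of 8 without mixed-hormone cells (26.8% of genes) and 5 of 9 at full depth (with Nkx2-2 added, 26.8% of genes). The 20-point rule, the level among cells at 10 RPM, detection at full depth or without mixed-hormone cells, the removal of shallow cells or of alpha cells with a further hormone, single cells left out for list genes, and RPM over listed reads were chosen after seeing the data. No paired analysis was possible because titles number the cells of each treatment separately and no label joins a DMSO cell to a GNF4877 cell. Galnt2 gave no likeness value in GNF4877. Each treatment is 1 sample, so no spread between samples is known. Few reads limit what can be said of Mafa, with 10 reads in all Ins1-high cells, and also of Insm1 and Nkx2-2. Whether depth is the reason was not tested.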

Other observations

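Other marker lists were summed over Ins1-high cells of DMSO and GNF4877, with the most abundant gene of each in brackets. The mean sums came for 6 delta cell markers to 138 and 352 RPM (Sst and Sst), for 5 pancreatic polypeptide cell markers to 2637 and 803 RPM (Ppy and Ppy) and for 7 duct markers to 358 and 581 RPM (Krt7 and Krt18). They came for 8 endothelial markers to 13.6 and 3.93 RPM (Esam and Esam) and for 10 immune markers to 12.5 and 65.6 RPM (Cd74 and Cd74). Single cells carried much of several sums. Without DMSO_37 and GNF4877_37 the delta cell sums were 64.2 and 85.9 RPM, without DMSO_42 and GNF4877_50 the pancreatic polypeptide cell sums were 1186 and 94.8 RPM, and without DMSO_30 the immune sum in DMSO was 7.24 RPM. The 12 mesenchymal markers summed to 401 RPM in DMSO, 175 RPM without the cell DMSO_46, and 4.05 RPM in GNF4877, 2.44 RPM without GNF4877_31. DMSO_46 itself held 7.93 RPM of Pdx1, 76.7 RPM of Neurod1 and 8.81 RPM of Isl1. Of 16 cell cycle genes, 16 were past 2-fold higher in GNF4877 than in DMSO Ins1-high cells, beside 9.92% of 13402 genes.

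Outside both classes, Isl1 was read in 3 of 3 DMSO cells, up to 678 RPM, and in 2 of 7 GNF4877 cells, up to 205 RPM. Pax6 was read in 1 of 3 and 5 of 7 of those cells, and Pdx1 in 1 of 3 and 1 of 7, never above 0.808 RPM.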
